A study of Mus musculus with 109 samples.

Results

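The genes described here were 4 subunits of the GABA-A receptor and 2 chloride transporters, asked for by symbol: Gabra2, Gabra3, Gabra6, Gabrb2, Slc12a2 and Slc12a5. The deposited count table had rows for 5 of these 6 symbols among its 15973 genes, and Gabra6 is not analysed here. The study asked how granule cell progenitors (GCPs) of the mouse cerebellum signal to each other through Notch while they produce granule cells. Its single-cell experiment used mice at postnatal day 7 (P7), labelled C57BL/6, whereas the study's methods name ICR pups without tying them to this experiment. Cells of their cerebella were enriched on a Percoll density gradient and captured singly on C1 Fluidigm chips. All cells carried the same label, granule precursor cells without any treatment, genotype or control group. Classes of cells therefore came from the counts, expressed as CPM, the counts of a gene scaled to a cell total of 1000000. Cells at 100 CPM or more of Mki67, which encodes a protein of cycling cells, were called Mki67-high, and cells under 10 CPM were called Mki67-low.

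The GABA-A receptor is a chloride channel opened by GABA and built of several subunits, usually alpha and beta subunits together with a gamma or delta subunit. Whether its opening depolarizes or hyperpolarizes a cell depends on intracellular chloride. NKCC1, the product of Slc12a2, carries chloride into the cell, and KCC2, the product of Slc12a5, carries it out. In many immature neurons NKCC1 predominates and KCC2 increases as they mature. Gabra6, the symbol without a row, encodes a subunit characteristic of mature cerebellar granule cells.

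The labels placed the cells in 6 library groups of 18 or 19 cells, without saying whether these came from separate animals. In the tests, cells that share a library group were not treated as replicates. The p-values below come from 1 sum or mean per library group and measure only the spread between such groups. Total counts ran from 15071 to 8616017 per cell (median 3604792), and the next lowest total after the first was 1110182. In 2 Mki67-high cells 13533 and 12684 genes were detected, against a median of 4312. At least 3 of 10 granule lineage markers reached 50 CPM in all but 5 cells. At least 5 of 8 astroglial markers did so in 6 cells, of which 3 were Mki67-high and 3 Mki67-low. The reads carry no molecular identifiers, and amplified reads are not independent molecules, so intervals and limits cover counting error only. These intervals and limits pool cells of all library groups and do not measure the spread between groups.

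In all, 32 cells were Mki67-high, with 3 to 8 per library group, and 75 were Mki67-low, with 10 to 15 per group. The highest Mki67-low cell had 9.27 CPM of Mki67 and the lowest Mki67-high cell 132 CPM. The 2 cells between the bounds had 21.3 and 66.4 CPM and belonged to library group 2. Median totals were 4157698 counts in Mki67-high and 3580460 in Mki67-low cells. Median numbers of detected genes were 4967.5 and 4193. Rbfox3, which encodes the neuronal nuclear antigen NeuN, ran from 0 to 2555 CPM and was at 100 CPM or more in 44 cells (40.4% of all). Among Mki67-low cells, 32 were Rbfox3-high by the same bound, 31 were Rbfox3-low at under 10 CPM, and 12 lay between.

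Slc12a2 was the one member read in many cells. It had at least 1 count in 54 cells (49.5% of all, Wilson 95% interval 40.3 to 58.8) and reached 10 CPM in 26 cells (23.9%, 16.8 to 32.7). Gabra2 had a count in 18 cells and reached 10 CPM in 7. Gabra3, Gabrb2 and Slc12a5 had counts in 3, 6 and 9 cells, and each reached 10 CPM in a single cell. For comparison, the median gene of the table had a count in 22 cells and reached 10 CPM in 7, and 26.1% of genes reached it in at most 1 cell. Only 17.3% of genes reached 10 CPM in as many cells as Slc12a2 or more.

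**Figure D1:**
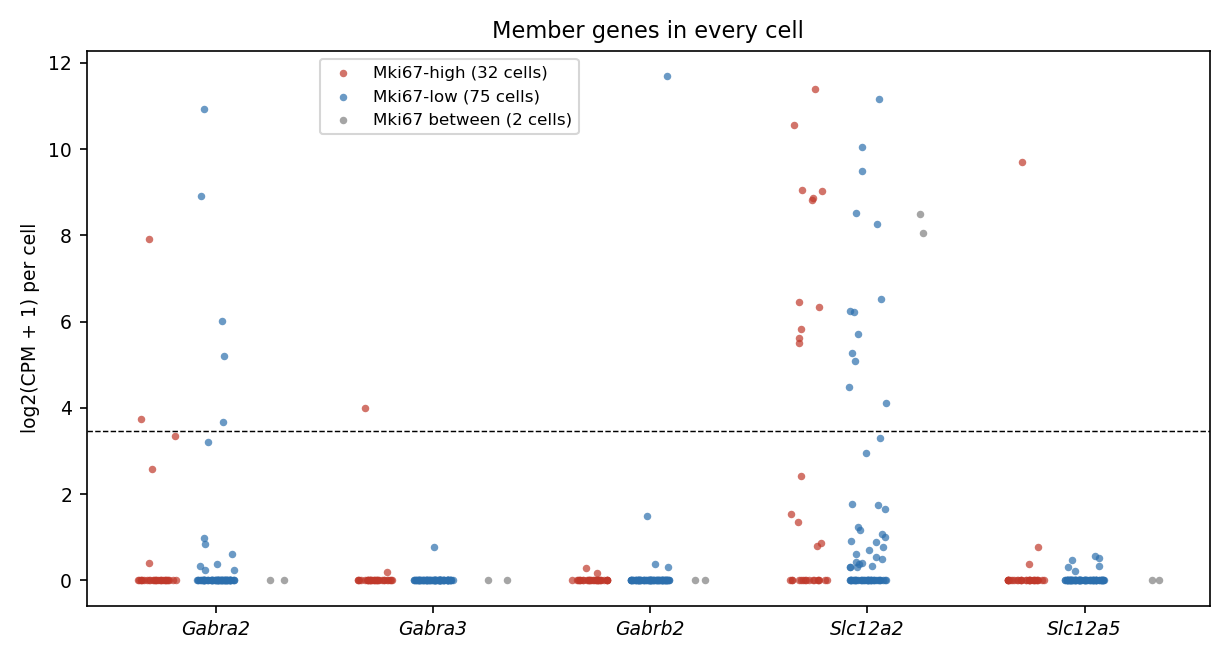
Each point is 1 cell, with log2(CPM + 1) of the 5 listed member genes on the y axis and the cells split into Mki67-high (32), Mki67-low (75) and between (2). The dashed line marks 10 CPM: Slc12a2 exceeded it in 26 cells and Gabra2 in 7, while Gabra3, Gabrb2 and Slc12a5 each did so in a single cell.

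Per kilobase of exon sequence, levels between genes can be compared. Mean CPM per kilobase over all cells was 10.3 for Slc12a2, 4.78 for Gabrb2, 3.40 for Gabra2, 1.02 for Slc12a5 and 0.0371 for Gabra3. Over the 6 library groups, CPM per kilobase of the summed counts ran from 0.0323 to 32.1 for Slc12a2, from 0 to 17.9 for Gabrb2, from 0 to 17.3 for Gabra2 and from 0 to 5.78 for Slc12a5. These ranges overlapped, and neighbours in this order did not differ beyond their spread. Gabrb2 and Slc12a5 hold their places through 1 cell each.

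Slc12a2 lies on chromosome 18 (GRCm38, 57878678 to 57946821, plus strand), where no other annotated gene overlaps it. Its NKCC1 cotransporter brings sodium, potassium and chloride into the cell. The median of its 54 detected cells was 7.82 CPM and the highest 2686 CPM, so most of the signal lay in a minority of cells. The highest cell was Mki67-high (711 CPM), and it carried 21.9% of the CPM summed over all cells. That cell had 1043 CPM of the GCP transcription factor gene Atoh1 and 1582 CPM of Dcx, but also 2914 CPM of Pdgfra and 1337 CPM of Mbp, both markers of the oligodendrocyte lineage. Of the 26 cells at 10 CPM or more, 26 carried at least 3 of 10 granule lineage markers at 50 CPM, as did 78 of the 83 other cells. At least 3 of 8 astroglial markers did so in 4 of the 26 and 6 of the 83, and at least 3 of 7 oligodendrocyte lineage markers in 3 of the 26 and 3 of the 83. Their part in the Slc12a2 level was not tested.

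Slc12a2 detection differed widely between library groups. A count was present in 8 of 19 cells of group 1, 18 of 18 of group 2, 6 of 18 of group 3, 12 of 18 of group 4, 3 of 18 of group 5 and 7 of 18 of group 6. The corresponding levels of the summed counts were 49.8, 350.6, 26.9, 163, 0.352 and 97.8 CPM. Library group 2 also held the highest cell, and 10 of its 17 other cells had only 1 to 5 counts of Slc12a2 (58.8%), against 14 of the 91 cells of the other groups (15.4%). Whether these low counts belong to the cells they were read in was not tested, and 10 CPM is therefore used beside 1 count. At 10 CPM, the cells numbered 2, 8, 3, 7, 0 and 6 in groups 1 to 6. In group 2 they included the cell with a total of 15071, whose 265 CPM came from 4 counts. The 2 Mki67-high cells with the most detected genes were also among the cells at 10 CPM.

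The first comparison asked whether the members differed between cycling and non-cycling cells. Slc12a2 had a count in 16 of 32 Mki67-high cells (50%) and 36 of 75 Mki67-low cells. It reached 10 CPM in 11 Mki67-high cells (34.4%, Wilson 95% interval 20.4 to 51.7) and 13 Mki67-low cells (17.3%, 10.4 to 27.4), and the intervals overlapped. Without the cells carrying astroglial genes, which include the 2 Mki67-high cells with the most detected genes, the numbers were 9 of 29 (31%) and 12 of 72 (16.7%). With single library groups left out, the shares lay between 27.6% and 45.8% in Mki67-high and between 12.9% and 21.7% in Mki67-low cells. Thus the share with any read was near equal while the share at 10 CPM was higher in Mki67-high cells.

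When the counts of each class were summed within each library group, Slc12a2 had 209, 944, 50.9, 728, 0.0589 and 25.8 CPM in Mki67-high cells of groups 1 to 6. In Mki67-low cells it had 0.650, 194, 0.0340, 33.7, 0.602 and 131 CPM. Mki67-high cells were thus higher in library groups 1 to 4 and lower in groups 5 and 6, and the ranges of the classes overlapped. The means were 326 ± 407 CPM (SD, n = 6 sums) and 60.1 ± 82.9 CPM. In log2 units the fold change was 2.55 with a standard error of 1.71. It did not pass the study's threshold of 0.01, since edgeR's quasi-likelihood test gave p = 0.768 after Benjamini-Hochberg adjustment. In means of log2(CPM + 1) over cells, the difference was 2.27 (higher in 4 of 6 groups; exact sign-flip test, two-sided, p = 0.15625, adjusted over all genes tested 0.509). The median difference over all 9085 tested genes on that scale was 0.43, and over the same genes the median log2 fold change of the sums was -0.18.

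**Figure D2:**
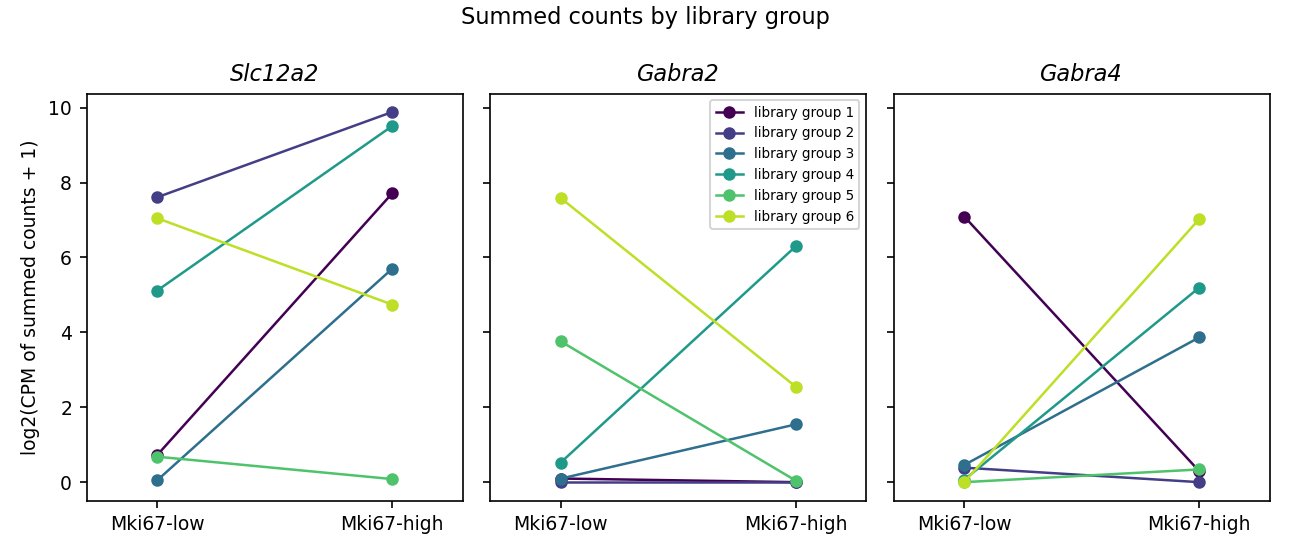
Lines join the Mki67-low and Mki67-high sums of each of the 6 library groups, with log2(CPM of the summed counts + 1) on the y axis, for Slc12a2, Gabra2 and Gabra4, another alpha subunit gene. Slc12a2 was higher in Mki67-high sums in 4 of 6 groups, and the lines of Gabra2 and Gabra4 ran in both directions.

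Over the whole table, 3 of 9085 genes passed the threshold in this comparison (0.033%), and all 3 were higher in Mki67-high cells. They were Mki67, which defined the classes, Cdc20 and Tacc3. Of the 2 members that could be tested, Slc12a2 and Gabra2, 0 passed, and 0 had an unadjusted p-value under 0.05, against 667 genes overall (7.34%, of which 2.95% higher and 4.39% lower). DESeq2 on the same sums called 377 genes but neither of these members. For Slc12a2 its log2 fold change was 2.95 with an adjusted p of 0.324, and for Gabra2 it gave no adjusted p. The means of log2(CPM + 1) were higher in Mki67-high cells in every library group for 7.89% of genes and lower in every one for 1.17%, and no member was among them.

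The second comparison placed the members beside Rbfox3 in Mki67-low cells, so that cycling was held low. These classes also differed in cell type markers. At least 3 of 10 granule lineage markers reached 50 CPM in 32 of 32 Rbfox3-high and 27 of 31 Rbfox3-low cells. At least 3 of 8 markers of GABAergic neurons did so in 0 and 3 cells, and at least 5 of 8 astroglial markers in 0 and 3. Slc12a2 reached 10 CPM in 6 of 32 Rbfox3-high cells (18.8%, Wilson 95% interval 8.89 to 35.3) and 5 of 31 Rbfox3-low cells (16.1%, 7.09 to 32.6). Its sums in groups 1 to 6 were 0.354, 301, 0.0793, 50.4, 0.975 and 112 CPM in Rbfox3-high cells. They were 1.10, 159, 0, 12.9, 0 and 156 CPM in Rbfox3-low cells. Rbfox3-high cells were higher in 4 of 6 groups, with means of 77.6 ± 118 CPM against 54.9 ± 79.8 CPM (SD, n = 6 sums). The fitted difference was 0.29 in log2 units with a standard error of 2.09 (adjusted p = 0.997, edgeR), an error wide enough to cover large differences in either direction. Of 5908 genes tested, 0 passed the threshold (0%), and 265 had an unadjusted p under 0.05 (4.49%, with 2.08% higher and 2.4% lower), among which Slc12a2 was not, while DESeq2 on the same sums called 450, without Slc12a2. Means over cells were higher in every library group for 1.76% of genes and lower in every one for 1.64%, again without Slc12a2. Over all cells, Spearman's rho of Slc12a2 was 0.10 with Rbfox3 and -0.0069 with Mki67, as descriptions of cells that share library groups and differ in depth.

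Among the genes whose CPM most resembled Slc12a2 over all cells, of 8641 genes with a count in at least 20 cells, were Cdh7 (rho 0.50) and Nsmaf (0.47). They had counts in 23 and 29 cells. Without the 3 cells of unusual depth, the values were 0.46 and 0.47. In counts this sparse, such values partly follow which cells and library groups were read most, and no p is given.

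Gabra2 lies on chromosome 5 (GRCm38, 70957597 to 71095849, minus strand) and encodes an alpha subunit, which contributes to the GABA binding site. Its 7 cells at 10 CPM or more had 1957, 484, 239, 63.5, 35.9, 12.3 and 11.7 CPM. The highest cell carried 69.2% of the CPM summed over all cells. These 7 cells came from library groups 4, 5 and 6, with 1, 3 and 3 cells, and groups 1 to 3 had none. In the highest cell, Mki67-low and of group 6, Dcx was at 5722 CPM, Neurod1 at 3002 CPM, Pax6 at 1617 CPM and Rbfox3 at 385 CPM, and it also had 800 CPM of Lhx1. All 7 cells carried at least 3 granule lineage markers at 50 CPM, as did all but 5 cells of the experiment. Among the 7, 1 carried at least 3 astroglial markers at 50 CPM and 1 at least 3 oligodendrocyte lineage markers. Over all cells these numbers were 10 and 6. The cell with 12.3 CPM, which had 6 astroglial markers at 50 CPM, was one of the 2 cells with over 10000 detected genes.

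Gabra2 showed no common direction between cycling and non-cycling cells. It was detected in 5 of 32 Mki67-high cells (15.6%, Wilson 95% interval 6.86 to 31.8) and 13 of 75 Mki67-low cells (17.3%, 10.4 to 27.4). It reached 10 CPM in 2 and 5 of them. Sums in groups 1 to 6 were 0, 0, 1.91, 77.6, 0.0295 and 4.86 CPM in Mki67-high cells. In Mki67-low cells they were 0.0696, 0, 0.0681, 0.437, 12.5 and 191 CPM. The classes overlapped fully, and 1 library group set each mean, group 4 for Mki67-high and group 6 for Mki67-low. Its log2 fold change in the sums was -0.99, with a standard error of 2.32 (adjusted p = 0.95, edgeR). Gabra2 did not pass the filter on low counts when library group 4 or 6, the cells of unusual depth or the cells with astroglial genes were left out. Its mean difference in log2(CPM + 1) was 0.14, and -0.31 without library group 4.

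Beside Rbfox3, most cells with a high Gabra2 level were Rbfox3-high. Of the 7 cells at 10 CPM or more, 6 had Rbfox3 at 100 CPM or more, of which 4 were Mki67-low and 2 Mki67-high. Over all cells that share was 40.4%. The remaining cell, with 11.7 CPM of Gabra2, had 8.94 CPM of Rbfox3, just under the lower bound. This pattern was noticed in the values and then counted on the same cells.

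Among Mki67-low cells, Gabra2 had a count in 8 of 32 Rbfox3-high cells (25%, Wilson 95% interval 13.3 to 42.1) and 3 of 31 Rbfox3-low cells (9.68%, 3.35 to 24.9). At 10 CPM the numbers were 4 and 1. Sums in groups 1 to 6 were 0.177, 0, 0, 0.880, 18.6 and 617 CPM in Rbfox3-high cells and 0, 0, 0, 0.0628, 2.76 and 0.0309 CPM in Rbfox3-low cells. Rbfox3-high cells were higher in the 4 groups with any count and equal at 0 in groups 2 and 3. The means were 106.04 ± 250 CPM and 0.475 ± 1.12 CPM (SD, n = 6 sums), and the first rests on library group 6. Gabra2 did not pass edgeR's filter in this comparison. As a single value, its mean difference in log2(CPM + 1) was 1.13 ± 2.01 (SD, n = 6; exact sign-flip test, two-sided, p = 0.125), and with 4 groups that differ no smaller p was possible.

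**Figure D3:**
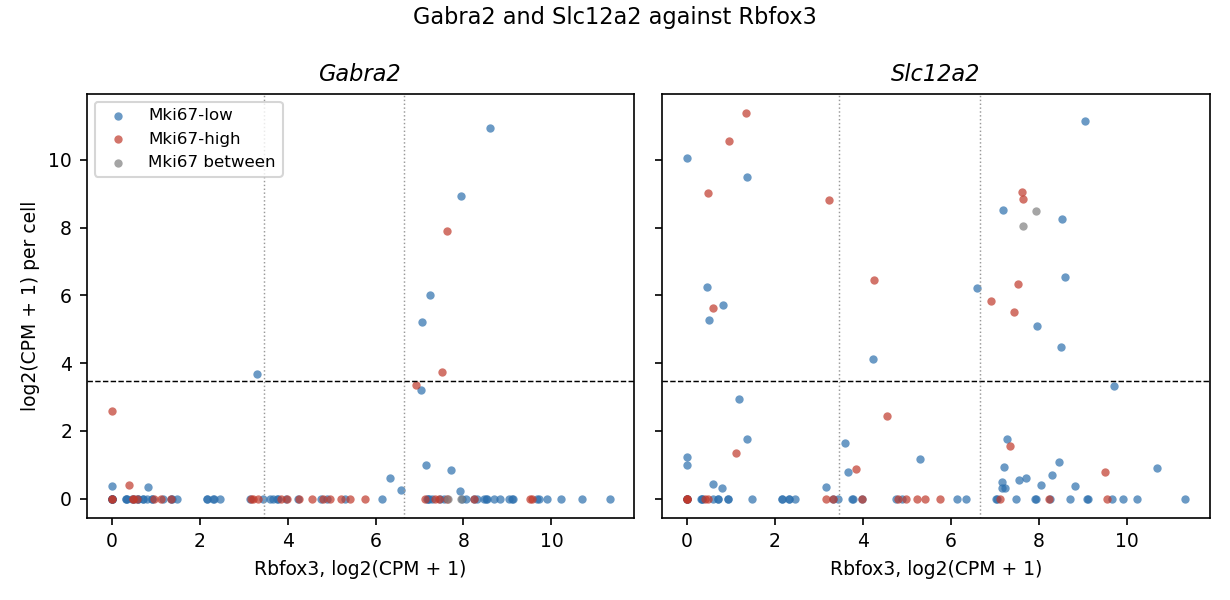
Each point is 1 cell, with log2(CPM + 1) of Rbfox3 on the x axis and of Gabra2 (left) or Slc12a2 (right) on the y axis, coloured by Mki67 class. The dashed line marks 10 CPM of the member and the dotted lines 10 and 100 CPM of Rbfox3: 6 of 7 Gabra2 cells over the dashed line lie right of both dotted lines, against 13 of 26 for Slc12a2.

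Gabra3 lies on the X chromosome (GRCm38, 72432681 to 72656848, minus strand) and encodes another alpha subunit. Its 3 cells held 74, 2 and 1 counts, or 15, 0.708 and 0.145 CPM. The first was a Mki67-high cell of library group 4 with 3073 CPM of Mki67. The same cell had the third highest Gabra2 level (239 CPM) and 533 CPM of Slc12a2. The cell with 1 count was the one with 13533 detected genes. Among Mki67-low cells, Gabra3 had no count in the 32 Rbfox3-high cells (0 counts allow a share of up to 9.38%) or in the 31 Rbfox3-low cells. It did not pass the filter in either comparison.

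Gabrb2 (chromosome 11, GRCm38, 42419757 to 42629028, plus strand) encodes a beta subunit, a kind found in nearly all GABA-A receptors. All 6 cells with a count belonged to library group 6, and 0 of the 91 cells of the other groups had one, a number that allows up to 3.30%. A single cell, with 8728 counts or 3310 CPM, held 99.9% of the CPM summed over all cells, and the other 5 held 1 to 7 counts. That cell was low in both class genes, with 0 CPM of Mki67 and 0.379 CPM of Rbfox3. It had 4114 CPM of Dcx and 3656 CPM of Neurod1, together with 5452 CPM of Gad1 and 1431 CPM of Gad2, which encode the GABA-synthesizing enzymes. It also had 1707 CPM of Gdf10, 919 CPM of Slc1a2 and 599 CPM of Gfap, so that 5 of 8 astroglial markers reached 50 CPM, and it carried 74.7 CPM of Slc12a2. Of the 10 granule lineage markers, Dcx, Neurod1, Meis1 and Zic1 reached 50 CPM in this cell. Barhl1, Cntn2 and Tubb3 were under 10 CPM, and Atoh1, Pax6 and Zic2 were at 0. Of 8 GABAergic markers, Gad1, Gad2 and Lhx5 reached 50 CPM. Pax2 and Lhx1 were under 10 CPM, and Slc32a1, Ptf1a and Calb1 were at 0. Some markers of granule, GABAergic and astroglial cells were thus read in the same library, and whether it held more than 1 cell was not tested.

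In sums, Gabrb2 was at 167 CPM in Mki67-low cells of library group 6, at 0.0817 CPM in Mki67-high cells of that group, and at 0 in the other library groups. Among Mki67-low cells of group 6 it was at 0.0615 CPM in Rbfox3-high and 270 CPM in Rbfox3-low sums, the latter holding the single high cell. It did not pass the filter in either comparison. The 0 of 91 cells outside library group 6 concern cells with a read and do not show that those cells lacked the subunit.

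Slc12a5 (chromosome 2, GRCm38, 164960802 to 164999731, plus strand) encodes KCC2, the neuronal chloride extruder. It had counts in 9 cells, of which 1 had 2117 counts or 827 CPM and 8 had 1 to 5 counts. The cell at 827 CPM belonged to library group 2 and was Mki67-high (269 CPM), with 2999 CPM of Dcx, 353 CPM of Tubb3, 1.17 CPM of Rbfox3 and 1279 CPM of Lhx1. The 8 low cells comprised 4 of the 17 other cells of that library group (23.5%) and 4 of the 91 cells of the other groups (4.4%). Slc12a5 reached 10 CPM in 0 of 75 Mki67-low cells (up to 4% allowed) and in 0 of the 32 that were also Rbfox3-high (up to 9.38% allowed). Its sums in Mki67-low cells ran from 0 to 0.0839 CPM over library groups. It was not tested in either comparison, as it did not pass the filter.

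The transporters were also read side by side. At 10 CPM, Slc12a2 was present in 26 cells, Slc12a5 in 1, and both in 0. At 1 count, 7 of the 9 cells with Slc12a5 also had Slc12a2. The cell with 827 CPM of Slc12a5 had 1.56 CPM of Slc12a2, from 4 counts.

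The other GABA-A receptor subunits give the receptor context of these members. Of 13 further subunit genes considered, 4 had rows: Gabra4, Gabrb1, Gabrg1 and Gabrg3. Gabra4 had a count in 25 cells and reached 10 CPM in 6, and Gabrb1 in 9 and 3. Gabrg1 was read in 9 cells and reached 10 CPM in 3, all of them low in both Mki67 and Rbfox3. At least 5 of 8 astroglial markers reached 50 CPM in 2 of these 3 cells. Gabrg3 was read in 5 cells and reached 10 CPM in 0. Gabra4 and Gabrb1 overlap on opposite strands, and since the strand setting of the counting is not known, reads in the overlap cannot be assigned.

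More Mki67-high than Mki67-low cells reached 10 CPM of Gabra4 and Gabrb1. Gabra4 reached 10 CPM in 5 of 32 Mki67-high cells (15.6%) and 1 of 75 Mki67-low cells (1.33%), and Gabrb1 in 3 and 0. The 2 cells with the most detected genes were among these cells for both genes, and all 3 Gabrb1 cells carried at least 5 astroglial markers. Gabra4's log2 fold change was 0.14 (adjusted p = 0.996 from edgeR), and the single Mki67-low cell held 1922 CPM. Its fold change was -0.24 without library group 4, -1.29 without group 6 and 7.51 without group 1, which held that cell. Gabrb1, Gabrg1 and Gabrg3 did not pass the filter.

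**Figure D4:**
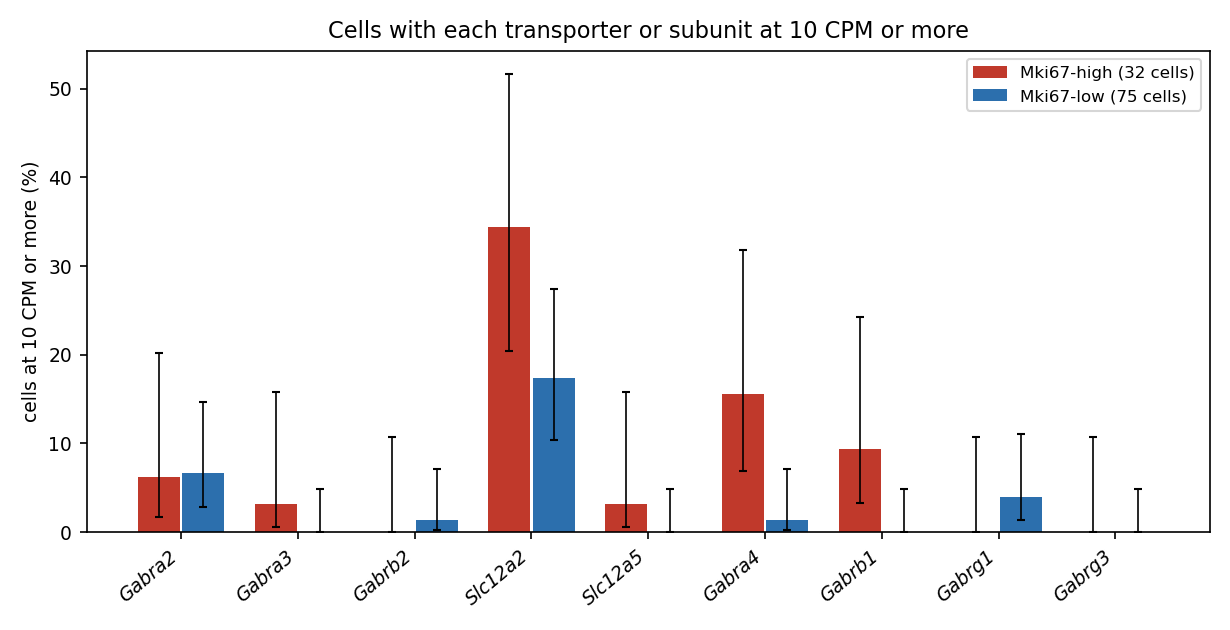
Bars give the percentage of 32 Mki67-high and 75 Mki67-low cells in which each transporter or subunit reached 10 CPM. Lines give Wilson 95% intervals, which pool cells of all library groups. The intervals of the classes overlap for each of the 9 genes, also for Slc12a2 (34.4% and 17.3%) and Gabra4 (15.6% and 1.33%).

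Of 16 genes of chloride handling other than the members, 11 were listed and 10 tested between Mki67 classes, and 0 passed the threshold, with 6 higher and 4 lower and a median log2 fold change of 0.87 (all genes: -0.18). Those with the largest summed counts were Clcn3, Wnk1, Clcn2 and Wnk3. Clcn3, an endosomal chloride-proton exchanger, averaged 398 CPM, and Wnk1, a kinase that acts upstream of NKCC1 and KCC2, 269 CPM. Clcn2, a plasma membrane chloride channel, averaged 72.1 CPM, and Wnk3, another kinase of the Wnk family, 53.5 CPM. Some listed genes with smaller summed counts had a higher mean CPM than Wnk3. In means of log2(CPM + 1) over cells, Wnk1, 1 of the 10 tested, was higher in Mki67-high cells in every library group. So were 7.89% of all genes. Its mean CPM, pooled over library groups, was 378 in Mki67-high and 229 in Mki67-low cells.

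Of 16 genes for scaffolding and trafficking of the receptor, all were listed, 14 were tested and 0 passed, with 8 higher and 6 lower in Mki67-high cells and a median log2 fold change of 0.22. Rdx, which encodes radixin, averaged 566 CPM, Ubqln1 227 CPM, Gabarap 205 CPM and Trak1 126 CPM. In means of log2(CPM + 1) over cells, Rdx, 1 of the 14 tested, was higher in Mki67-high cells in every library group, as were 7.89% of all genes.

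Of 9 genes of GABA supply and GABA-B receptors, 8 were listed and 4 tested, and all 4 had lower fitted values in Mki67-high cells (median log2 fold change -2.68), with 0 past the threshold. Gad1 averaged 194 CPM, Abat, a GABA-degrading enzyme, 100.97 CPM, and Gabbr1 and Gabbr2, the GABA-B receptor subunits, 110 and 63.3 CPM. Gad1 reached 10 CPM in 2 Mki67-high and 12 Mki67-low cells. In means of log2(CPM + 1) over cells, it was lower in Mki67-high cells in every library group, as were 1.17% of all genes. At least 3 of 8 GABAergic markers, a list that includes Gad1, reached 50 CPM in 0 Mki67-high and 4 Mki67-low cells. The part of these cells in the Gad1 difference was not tested. At an unadjusted p under 0.05 there were 1 gene of chloride handling (Clcn3), 1 of scaffolding and trafficking (Gabarapl1) and 1 of GABA supply (Gad1), of 10, 14 and 4 tested, beside 7.34% of all genes. In the Rbfox3 comparison, 0 genes of any of these lists passed the threshold. At an unadjusted p under 0.05 were Slc12a9, a member of the chloride cotransporter family, and Gad1, of 7, 11 and 4 genes tested in the lists, beside 4.49% of all genes. In means over cells, Rdx was higher and Gad1 lower in Rbfox3-high cells in every library group, as were 1.76% and 1.64% of all genes. The lists' median log2 fold changes were -1.46, -0.52 and 0.13 in the order above, against -0.10 for all genes.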

How the data were processed

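Single cells of P7 mouse cerebella were measured by RNA sequencing. Per the labels, the authors used STAR 2.4.1d, HTSeq 0.6.1 and the mm10 assembly, and they deposited raw counts per gene and cell, without normalization. Annotation and strand setting are not given in the sources used here. Each of the 15973 rows has a count in 3 or more cells, and rarer genes are not analysed here.

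CPM were computed from column totals. Counts were summed over the cells of each class and library group, filtered with filterByExpr, scaled by TMM and compared with edgeR 4.0.16 (quasi-likelihood test, Benjamini-Hochberg adjustment, threshold 0.01) in R 4.3.3. DESeq2 1.42.0 was an alternative. Mean differences in log2(CPM + 1), with a pseudocount of 1 CPM, were tested by exact sign-flips over 6 library groups, for which the smallest p is 0.03125. Lengths and positions came from GENCODE M21. Scripts for statistics across genes were tested on simulated data.

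The text names the members, Mki67, Rbfox3, the other listed subunits, the 4 genes with most counts of each pathway list and the genes most like Slc12a2 (3 by rule). Genes that these rules select but that are not reported here were left out of the lists and their counts. Cdc20, Tacc3, Gabarapl1, Slc12a9 and the marker genes of single cells were named after their values were seen. The members and lists were chosen with earlier results of these data known. Shares carry Wilson 95% intervals. All cells were kept. Alternatives were other size factors, no filter, library group as a block, single library groups left out, cells of unusual depth (under 1000000 counts or over 10000 genes) or with astroglial genes left out, other class bounds (50 and 1 CPM), a pseudocount of 10 CPM and counts thinned to 1110182 per cell.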

Additional observations from a re-analysis of the deposited data

Results flagged for a closer look

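For each member, the sums of the 6 library groups were screened within each class for 1 sum far from the others (Dixon's criterion at 95%). Of the 18 sets of sums with any count, 14 held such a sum, where chance flags about 1 in 20. A gene read in few cells meets this criterion readily, since most sums are at or near 0.

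For Gabra2, library group 4 stood apart among Mki67-high sums at 77.6 CPM, and group 6 among Mki67-low sums at 191 CPM. Among Mki67-low cells, group 6 stood apart in Rbfox3-high sums at 617 CPM and group 5 in Rbfox3-low sums at 2.76 CPM. For Gabra3, group 4 stood apart in Mki67-high sums at 4.87 CPM and group 1 in Mki67-low sums at 0.0464 CPM. For Gabrb2, group 6 stood apart in all classes, at 0.0817 CPM in Mki67-high, 167 CPM in Mki67-low, 0.0615 CPM in Rbfox3-high and 270 CPM in Rbfox3-low sums.

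For Slc12a2, library group 2 stood apart in Rbfox3-high sums at 301 CPM. For Slc12a5, group 2 stood apart at 226 CPM in Mki67-high, 0.0839 CPM in Mki67-low and 0.129 CPM in Rbfox3-high sums. Library groups 2, 4 and 6 account for 12 of these 14 sums.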

How the results depend on the processing

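The number of genes called between Mki67 classes was 3. It was 7 at a threshold of 0.05, 7 with RLE size factors, 1 with the replicate block for library groups, 377 with DESeq2 (of 10811 genes) and 2 to 3 with each library group left out. Between Rbfox3 classes it was 0, and 450 with DESeq2 (of 7713 genes). In the remaining edgeR fits it stayed 0, with 213 genes at an unadjusted p under 0.05 under the block. Differences of 1 sign in every library group were found for 823 genes between Mki67 classes and for 201 between Rbfox3 classes, and for 1031 to 1389 and 333 to 422 with 1 library group left out, where fewer groups have to share a sign.

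The Slc12a2 log2 fold change kept its direction and missed the threshold under all 14 alternatives, from 1.96 without library group 4 to 3.34 with the block between Mki67 classes and from 0.18 to 1.22 between Rbfox3 classes. Gabra2 between Mki67 classes ran from -2.05 with the block to -0.81 under the 9 alternatives that gave a value. Gabra4 reversed to -0.24 and -1.29 without library groups 4 and 6 and was 7.51 without group 1. The mean difference of Gabra2 in log2(CPM + 1), 0.14, was -0.0306 without cells of unusual depth, -0.0800 without cells with astroglial genes and -0.31 to 0.46 with 1 library group left out. The cause of these reversals was not tested. Over all tested genes, sums of the same library group deviated together little (correlations of 0.0201 to 0.0558 between Mki67 classes), so the block is given as an alternative only. For 4 of the 6 groups the highest correlation was still with the same group. These correlations do not describe single genes such as Slc12a2, whose detection differed widely between groups.

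Depth limits the rarely read members most. With counts thinned to 1110182 per cell, which leaves out the cell with 15071, Gabra2 was detected in 13 cells, Gabra3 in 1, Gabrb2 in 2, Slc12a2 in 42 and Slc12a5 in 4. In the unthinned table, at least 5 counts were present in 10, 1, 2, 32 and 2 cells.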
